A study of Mus musculus with 8 samples.

Results

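The transcripts of 48 mouse genes of the proteasome were compared between dendritic cells that had engulfed ferroptotic cells and untreated dendritic cells. The members were the protein-coding genes in a table of 55487 genes whose symbols start with Psma, Psmb, Psmc, Psmd, Psme, Psmf or Psmg and a digit. The rule left out Psmb8 and Psmb9, a pair of interferon-inducible core subunits, and 4 pseudogenes. Of the 48 genes, 47 encode subunits, activators, assembly chaperones or regulators of the proteasome. The remaining gene, Psmc3ip, shares the symbol but encodes a partner of meiotic recombination proteins. Not all the others are constitutive: Psmb10 is an interferon-inducible core subunit, Psmb11 is the thymic one, Psma8 the testis one, and Psme2b is a retrotransposed copy of Psme2.

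BMDC (wild-type dendritic cells grown for 10 days from the bone marrow of C57/bl6 mice in GM-CSF) were left untreated. BMDC-fer were the same kind of cells after 4 h of co-culture with ferroptotic Jurkat cells, a human T-cell leukemia line, and were sorted for engulfed cargo. The Jurkat cells had been exposed to 0.5 µM ML162, a GPX4 inhibitor that triggers ferroptosis, for 14 h. Each group held 4 libraries, collected independently, of polyadenylated RNA, and the sort, the co-culture and the engulfment cannot be told apart between the groups.

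The 26S proteasome degrades proteins that carry ubiquitin chains. Its barrel-shaped 20S core is built of rings of alpha subunits, which gate the entrance, and rings of beta subunits, of which Psmb5, Psmb6 and Psmb7 cut peptide bonds. A 19S cap made of a base and a lid binds, unfolds and deubiquitinates the substrates. Other caps, the Psme activators, open the core without ubiquitin. In dendritic cells the peptides released by the proteasome feed MHC class I presentation, and interferon exchanges the catalytic subunits for Psmb8, Psmb9 and Psmb10 and induces Psme1 and Psme2.

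The libraries held 39326672 to 50532209 counts, of which the members together took between 0.461% and 0.532%. A floor of 3 counts corresponded to between 0.0607 and 0.0785 CPM, the counts scaled to a common library size after TMM normalization, and, as the reads carry no molecular identifiers, covers counting error only. Replicates 1 and 2 differed from replicates 3 and 4 in either group, so values within each pair of replicates are also given for the genes the results turn on. Itgax, which encodes the dendritic cell integrin CD11c, was at 787 to 1406 CPM in BMDC and at 748 to 1316 CPM in BMDC-fer. The summed level of 12 dendritic cell markers was 8828 to 20650 CPM in BMDC and in BMDC-fer 3764 to 9944 CPM. Of these markers 3 were called, Flt3, Ccr7 and Irf4, all as lower. The largest part of the sum was Cd74, at 3806 to 9568 CPM in BMDC and 1400 to 4808 CPM in BMDC-fer. Cd74 and the MHC class II genes H2-Aa, H2-Ab1 and H2-Eb1 were not called, with adjusted p between 0.10 and 0.15 in edgeR. Macrophage markers were also present, at a summed 2489 to 3442 CPM in BMDC and in BMDC-fer 2948 to 4630 CPM, although Adgre1, the 1 of these 8 markers that was called, fell by 0.81 on the log2 scale with an adjusted p of 0.012 in edgeR. Granulocyte markers summed to 46.2 to 264 CPM in BMDC and in BMDC-fer 14.6 to 44.1 CPM. The 9 T-cell markers summed to 29.9 to 43.3 CPM in BMDC and to 29.3 to 54.0 CPM in BMDC-fer, most of it Cd28 at 27.4 to 53.0 CPM. Of the others Cd3g reached 4.40 CPM in BMDC 1, Lck had a log2 fold change of -1.59 with an adjusted p of 0.048 in edgeR, Cd3d and Cd3e stayed at or below 0.35 CPM, and Bcl11b was at 0 in every library. Cd2 and Cd247 had higher means in BMDC-fer, at 0.29 and 0.24 CPM against 0.15 and 0.16 CPM in BMDC. Cd5 had a lower mean, at 0.11 CPM against 0.34 CPM in BMDC. The groups overlapped for Cd2, Cd247 and Cd5. The part of these marker differences in the results below was not tested, and in bulk samples fewer cells of a type and less RNA per cell cannot be told apart.

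Proteasome transcripts differed little between BMDC-fer and BMDC. A gene was called when its adjusted p was 0.05 or less and its absolute log2 fold change was 0.58 or more, by the quasi-likelihood test of edgeR adjusted after Benjamini and Hochberg over all 15411 genes that passed a filter on low counts. The filter kept 47 members. Psmb11 was left out, with at most 2 counts in any library, so that it was at or under the floor in both groups. Of the 47 tested members 0 were called, against 9.38% of all tested genes. By adjusted p alone 4 members were higher in BMDC-fer, against 4.85% of all tested genes, and 0 were lower, against 7.16%. Of these 4 members 0 passed without any one of BMDC 3, BMDC 4, BMDC-fer 1, BMDC-fer 2 or BMDC-fer 4. Psmc5 passed without any one of the others, joined by Psmd7 without BMDC 2, and 0 passed with library totals alone. With 1 library left out fewer genes were also called over all tested genes. By adjusted p alone 7 members passed in DESeq2 and 10 in edgeR with the replicate pair as a covariate, all of them higher. Over all genes 2414 and 2815 were called in those fits with the fold threshold, against 1445 in the main one. At an unadjusted p under 0.05 there were 12 members, all of them higher, against 13.7% of all tested genes that were higher and 16.2% that were lower. DESeq2 called 1 member, Psmg3, as higher, against 4.89% of the genes to which it gave an adjusted p. The 95% interval of the log2 fold change lay inside ±0.58 for 33 of the 47 members, and for 24.8% of all tested genes.

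The small differences were mostly upward. The log2 fold change was above 0 for 33 of the 47 members, or 70.2%, and for 50.1% of all tested genes. Its median was 0.15 over the members and 0.00 over all tested genes. For 14 members every BMDC-fer library was above every BMDC library, against 11.3% of all tested genes, and for 0 members every BMDC-fer library was below, against 11.6%. Of these 14 members, 10 belong to the base and the lid of the 19S cap, as do 17 of the 47 tested members. Scaled by library totals alone, without TMM factors, 5 members were above and 3 below without overlap, and the shares over all tested genes moved to 6.37% above and 16.0% below. The summed level of all members was 4700 ± 265 CPM in BMDC and in BMDC-fer it was 5136 ± 394 CPM (SD, n = 4), and these ranges, 4372 to 4974 and 4766 to 5522 CPM, overlapped.

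**Figure D1:**
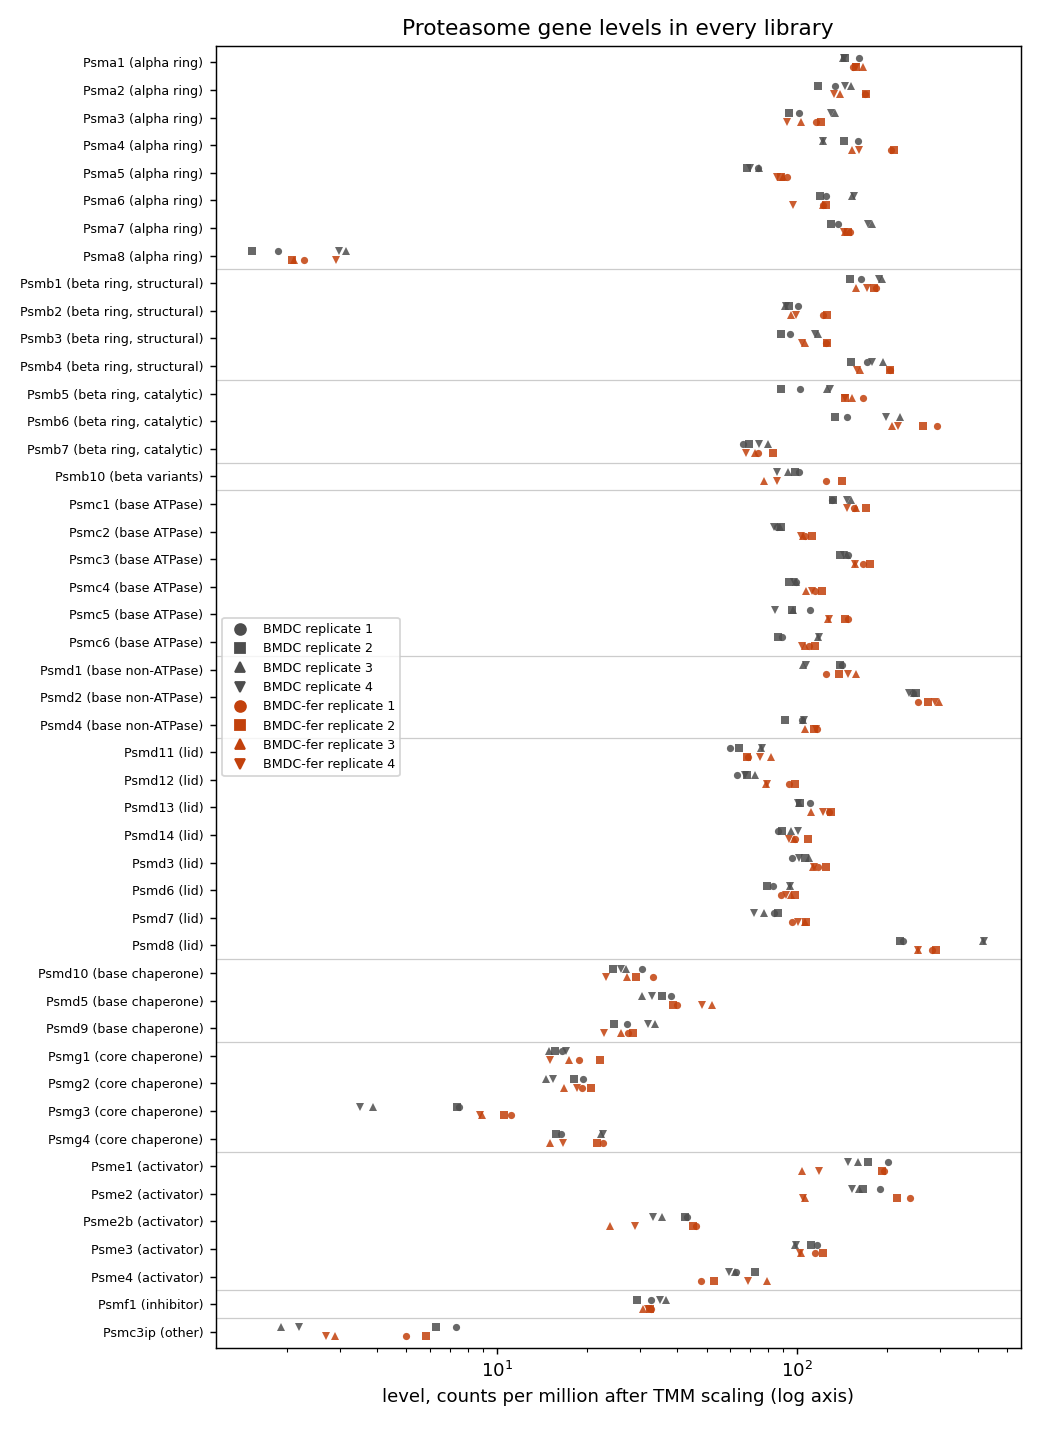
Level of the 47 tested members in each library, in CPM on a log axis, grouped by role, with BMDC in grey, BMDC-fer in orange and 1 symbol per replicate number. Psmc5, Psmc2, Psma5 and Psmd7 separate the groups, while Psmd8, Psme1 and Psme2 separate replicates 1 and 2 from replicates 3 and 4 within a group.

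The catalytic subunits Psmb5 and Psmb6 are shown with the sequence upstream of their start sites, because each holds the core of the antioxidant response element, TGACNNNGC, and because both were called when replicates 1 and 2 were taken alone. Psmc5 is shown as the member with the lowest adjusted p. Each line gives the 250 bases before the start site of the RefSeq promoter (build GRCm38.p6), 5′ to 3′ on the strand of the gene, and capitals mark TGACNNNGC. The regions are chr14:54617996-54618245 on the minus strand for Psmb5, chr11:70525107-70525356 on the plus strand for Psmb6 and chr11:106255935-106256184 on the plus strand for Psmc5.
Psmb5: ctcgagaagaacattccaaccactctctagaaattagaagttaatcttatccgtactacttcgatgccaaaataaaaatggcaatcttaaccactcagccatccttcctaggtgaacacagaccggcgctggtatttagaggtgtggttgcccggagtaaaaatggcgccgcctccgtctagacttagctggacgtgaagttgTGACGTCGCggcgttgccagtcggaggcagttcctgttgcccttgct
Psmb6: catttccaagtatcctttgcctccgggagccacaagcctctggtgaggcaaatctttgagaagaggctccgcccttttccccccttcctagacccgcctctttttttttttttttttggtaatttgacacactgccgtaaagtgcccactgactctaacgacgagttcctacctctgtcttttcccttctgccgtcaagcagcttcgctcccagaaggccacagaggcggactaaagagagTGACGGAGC
Psmc5: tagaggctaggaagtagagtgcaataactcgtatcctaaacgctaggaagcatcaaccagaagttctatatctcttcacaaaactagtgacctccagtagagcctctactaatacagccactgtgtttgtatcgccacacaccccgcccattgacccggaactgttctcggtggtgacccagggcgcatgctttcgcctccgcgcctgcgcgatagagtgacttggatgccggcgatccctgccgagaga
The match began 47 bases before the start site in Psmb5 and 9 bases before it in Psmb6, on the strand of the gene in both. Psmc5 held no match to it.

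Among the 40 members found in the promoter table, 6 held TGACNNNGC on either strand within 250 bases before to 50 bases after a start site, or 15.0%, against 14% of all 27025 genes in the table. These were Psmb5, Psmb6, Psmc6, Psmd9, Psmd12 and Psme4, whose log2 fold changes lay between -0.16 and 0.49. The CCAAT box, which NF-Y binds, was in 14 members, or 35%, against 41.1% of all genes. The palindrome TTCNNNGAA was in 2 members, or 5.0%, against 9.6%. GAAANNGAA, the core of the interferon-stimulated response element, was in 7 members, or 17.5%, against 9.8%. Psme1 held GAAANNGAA and Psme2 did not. The strings were searched separately on both strands, a stretch can match more than 1 of them, and a match describes letters, not binding.

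Of the 3 catalytic subunits, Psmb5 and Psmb6 had the larger values in BMDC-fer and Psmb7 had nearly the same level in both groups. Psmb5, the chymotrypsin-like subunit on chromosome 14 (54614119 to 54618022, minus strand), was at 103, 88.4, 126 and 129 CPM in BMDC 1 to 4 and at 166, 145, 153 and 145 CPM in BMDC-fer 1 to 4. Every BMDC-fer library was above every BMDC library, with a log2 fold change of 0.44 ± 0.14 (SE) and an adjusted p of 0.068 in edgeR. DESeq2 gave Psmb5 an adjusted p of 0.039. Of the 50-base words of its longest coding transcript 57.1% also occur in other genes, most in Gm3375, so its counts depend on how reads with several matches were handled, which is not given in the sources used here.

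Psmb6, the caspase-like subunit on chromosome 11 (70525367 to 70527858, plus strand), was at 146, 134, 220 and 199 CPM in BMDC 1 to 4 and at 293, 263, 207 and 217 CPM in BMDC-fer 1 to 4. The libraries BMDC 1 and 2 were the low ones and BMDC-fer 1 and 2 the high ones, and the groups overlapped. Its log2 fold change was 0.49 ± 0.19 (SE) with an adjusted p of 0.13 in edgeR. Psmb7, the trypsin-like subunit, was at 66.3, 69.4, 79.9 and 74.6 CPM in BMDC and at 74.1, 83.5, 72.6 and 67.4 CPM in BMDC-fer, for a log2 fold change of 0.04 with a 95% interval from -0.20 to 0.27. Psmb7 shares 28.1% of its words with other genes, most with its neighbour Nek6.

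The inducible counterpart of Psmb7, Psmb10, was at 102, 98.7, 93.3 and 86.2 CPM in BMDC and at 126, 142, 77.8 and 86.2 CPM in BMDC-fer. It was high in BMDC-fer 1 and 2 and low in BMDC-fer 3 and 4, and its pooled log2 fold change was 0.18 ± 0.19 (SE) with an adjusted p of 0.56 in edgeR.

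Psmb8 and Psmb9, outside the rule, replace Psmb5 and Psmb6 in the interferon-induced core. Psmb8 was at 148 to 183 CPM in BMDC and at 95.6 to 164 CPM in BMDC-fer, for a log2 fold change of -0.31 with an adjusted p of 0.31. Psmb9 was at 65.0 to 106 CPM in BMDC and at 36.5 to 73.5 CPM in BMDC-fer, for a log2 fold change of -0.60 with an adjusted p of 0.18 in edgeR. With the replicate number as a block Psmb9 was called as lower, with an adjusted p of 0.026.

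The ratio of each inducible to its constitutive subunit was then taken within each library from levels per length (CPM per kilobase of exon), a readout chosen after the values of the subunits were seen. Psmb8 to Psmb5 was 0.474, 0.499, 0.331 and 0.305 in BMDC 1 to 4 and 0.262, 0.301, 0.180 and 0.176 in BMDC-fer 1 to 4. Psmb9 to Psmb6 was 0.371, 0.325, 0.161 and 0.167 in BMDC and 0.128, 0.133, 0.0903 and 0.0874 in BMDC-fer. In both ratios every BMDC-fer library was below every BMDC library. The difference of mean log2 ratios was -0.81 for Psmb8 to Psmb5 and -1.15 for Psmb9 to Psmb6, each with an adjusted p of 0.043 over the 3 ratios (two-sided exact permutation test, n = 4 per group, p of 0.029 before adjustment, the smallest it can give). The ratios of Psme1 and of Psme2 to Psme4 were put through the same test and left out of this adjustment. Both overlapped between the groups, and counting them in would raise the adjusted p above 0.05. The exact permutation test also ignores the pairing by replicate number. Over sign flips of the 4 same-numbered differences the exact p was 0.125 for both ratios, the smallest that 4 pairs allow, so that neither passed with the pairing. Within replicates 1 and 2 these differences were -0.79 and -1.41, and within replicates 3 and 4 they were -0.83 and -0.89. Psmb10 to Psmb7 was 2.32 to 3.09 in BMDC and 2.15 to 3.40 in BMDC-fer and overlapped, with a difference of 0.10 and an adjusted p of 0.57 in the same exact test. A ratio within a library does not depend on the scaling between libraries, but that to Psmb5 carries the uncertainty of its shared words. The part of the lower dendritic cell markers in these ratios was not tested.

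**Figure D2:**
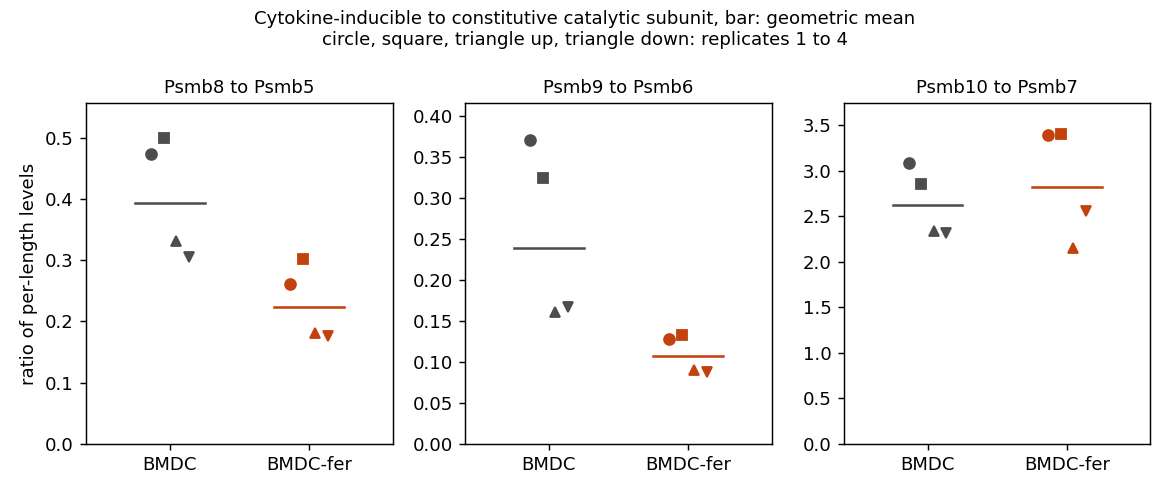
Ratio of the per-length level of each inducible catalytic subunit to its constitutive counterpart in each library, with bars at the geometric mean of 4 libraries and 1 symbol per replicate number. Psmb8 to Psmb5 and Psmb9 to Psmb6 lay lower in all BMDC-fer libraries than in all BMDC libraries, and Psmb10 to Psmb7 overlapped.

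In the alpha rings, which carry the gate of the core, 4 of 8 genes had a log2 fold change above 0 and 4 below, with a median of 0.04. Psma5 on chromosome 3 was at 74.0, 68.3, 74.7 and 69.96 CPM in BMDC and at 92.7, 88.4, 89.9 and 86.1 CPM in BMDC-fer. The groups did not overlap, and Psma5 was higher by 0.32 ± 0.08 (log2, SE) with an adjusted p of 0.041 in edgeR, below the fold threshold, and of 0.055 with the replicate number as a block. It shares 55.4% of its words with other genes, most with Gm8394. Psma4, the highest of the alpha genes by fold, was at 160, 144, 122 and 122 CPM in BMDC and at 206, 211, 153 and 161 CPM in BMDC-fer. The groups overlapped only between BMDC 1 and BMDC-fer 3, and its log2 fold change of 0.41 had an adjusted p of 0.10 in edgeR and of 0.035 with the replicate number as a block.

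Psma6 was the lowest alpha gene by fold, at 125, 120, 152 and 155 CPM in BMDC and at 122, 125, 122 and 96.9 CPM in BMDC-fer. The log2 fold change of -0.24 had an adjusted p of 0.24 in edgeR, and the groups overlapped. Psma1, Psma2, Psma3 and Psma7 had log2 fold changes between -0.09 and 0.16. Psma8, which replaces Psma7 in the core of male germ cells, was at 1.54 to 3.14 CPM in BMDC and in BMDC-fer 2.08 to 2.90 CPM, with a log2 fold change of -0.02 and a wide 95% interval from -0.66 to 0.61.

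The structural beta subunits Psmb1, Psmb2, Psmb3 and Psmb4 do not cut peptides. Their log2 fold changes ran from -0.01 for Psmb1 to 0.23 for Psmb2, with a median of 0.11, and all 4 had 95% intervals inside ±0.58. Psmb1 was at 163, 150, 192 and 189 CPM in BMDC and at 183, 180, 157 and 171 CPM in BMDC-fer. Psmb2 was at 101, 94.3, 91.0 and 91.8 CPM in BMDC and at 122, 126, 95.7 and 99.2 CPM in BMDC-fer, with an adjusted p of 0.22 in edgeR. Psmb3 and Psmb4 lay between them at 0.15 and 0.07, with 55.8% of the words of Psmb3 shared with other genes. BMDC-fer 1 and 2 were the high libraries of Psmb2, and the groups overlapped between BMDC 1 and BMDC-fer 3 and 4.

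The 6 ATPases of the base form the ring that unfolds substrates, and all 6 had log2 fold changes above 0, with a median of 0.20. Their summed level was 664, 637, 699 and 675 CPM in BMDC and in BMDC-fer 801, 839, 759 and 751 CPM, without overlap. Psmc5 (Rpt6), on chromosome 11 (106256154 to 106263120, plus strand), was at 110, 96.3, 96.99 and 84.5 CPM in BMDC and at 149, 145, 127 and 128 CPM in BMDC-fer. It was higher by 0.50 ± 0.11 (log2, SE), or 1.41-fold, with an adjusted p of 0.026 in edgeR and of 0.021 with the replicate number as a block. Within replicates 1 and 2 the log2 fold change of Psmc5 was 0.51 and within replicates 3 and 4 it was 0.50.

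Psmc2 (Rpt1), on chromosome 5, was at 86.2, 88.3, 87.6 and 84.1 CPM in BMDC and at 107, 112, 105 and 103 CPM in BMDC-fer. The spread within each group was small and the groups did not overlap, with a log2 fold change of 0.30 ± 0.08 (SE) and an adjusted p of 0.043 in edgeR, which was 0.061 with the replicate number as a block. Psmc3 and Psmc4 also did not overlap, at log2 fold changes of 0.18 and 0.23 and adjusted p of 0.20 and 0.11 in edgeR. With library totals alone Psmc2 and Psmc5 stayed above without overlap, and Psmc3 and Psmc4 did not. Psmc1 overlapped, at 131 to 151 CPM in BMDC and at 147 to 170 CPM in BMDC-fer. Psmc6 was the lowest by fold, at 0.08, with BMDC at 88.9, 86.8, 118 and 118 CPM and BMDC-fer at 110, 115, 106 and 104 CPM.

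Of the base subunits without ATPase activity, Psmd1 and Psmd2 are scaffolds that dock ubiquitin receptors and Psmd4 binds ubiquitin chains. Their log2 fold changes were 0.21, 0.19 and 0.16, with adjusted p between 0.21 and 0.34 in edgeR and 95% intervals inside ±0.58. Psmd2 was at 243, 250, 246 and 237 CPM in BMDC and at 253, 274, 298 and 288 CPM in BMDC-fer, without overlap, but 26.4% of its words are shared with other genes, most with Gm5422. Psmd4 was at 104, 91.1, 105 and 106 CPM in BMDC and at 117, 114, 106 and 116 CPM in BMDC-fer. These groups did not overlap, although BMDC 4 and BMDC-fer 3 were nearly equal. With library totals alone neither Psmd2 nor Psmd4 stayed above without overlap. Psmd1 was at 142, 140, 105 and 107 CPM in BMDC and at 125, 138, 157 and 149 CPM in BMDC-fer, so that the pairs of replicates went opposite ways.

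The lid removes ubiquitin chains through Psmd14, its deubiquitinase, before the substrate enters the core. Of the 8 lid genes 7 had log2 fold changes above 0, with a median of 0.14, and 4 did not overlap between groups, each with BMDC-fer above, against the 11.3% of all tested genes given above. With library totals alone 0 of these 4 stayed without overlap. Psmd7, which forms the deubiquitinating pair with Psmd14, was at 83.8, 86.7, 77.8 and 71.9 CPM in BMDC and at 96.2, 107, 106 and 101 CPM in BMDC-fer. It was higher by 0.36 ± 0.10 (log2, SE) with an adjusted p of 0.044 in edgeR and of 0.053 with the replicate number as a block. Psmd12, the highest lid gene by fold, was at 63.0, 68.0, 72.7 and 67.3 CPM in BMDC and at 93.9, 98.6, 78.8 and 79.5 CPM in BMDC-fer, with a log2 fold change of 0.37 ± 0.11 (SE) and an adjusted p of 0.056 in edgeR. Psmd3 and Psmd13, 2 further subunits of the lid, also did not overlap, with Psmd3 at 96.4 to 110 CPM in BMDC and at 113 to 125 CPM in BMDC-fer and Psmd13 at 101 to 111 CPM and at 112 to 130 CPM. Their log2 fold changes of 0.18 and 0.24 had adjusted p of 0.20 and 0.11 in edgeR. Psmd6 and Psmd11 overlapped, at log2 fold changes of 0.09 for both. Psmd14 was at 86.7 to 101 CPM in BMDC and in BMDC-fer 93.8 to 109 CPM and overlapped, with a log2 fold change of 0.10.

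Psmd8, the lid subunit whose incorporation completes the lid, was the lowest of all members by fold. Psmd8, on chromosome 7, was at 226, 221, 418 and 420 CPM in BMDC 1 to 4 and at 283, 290, 254 and 253 CPM in BMDC-fer 1 to 4. BMDC 3 and 4 were the high libraries, and the BMDC-fer libraries lay between the pairs of BMDC libraries. The pooled log2 fold change of -0.25 ± 0.23 (SE) had an adjusted p of 0.50 in edgeR.

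**Figure D3:**
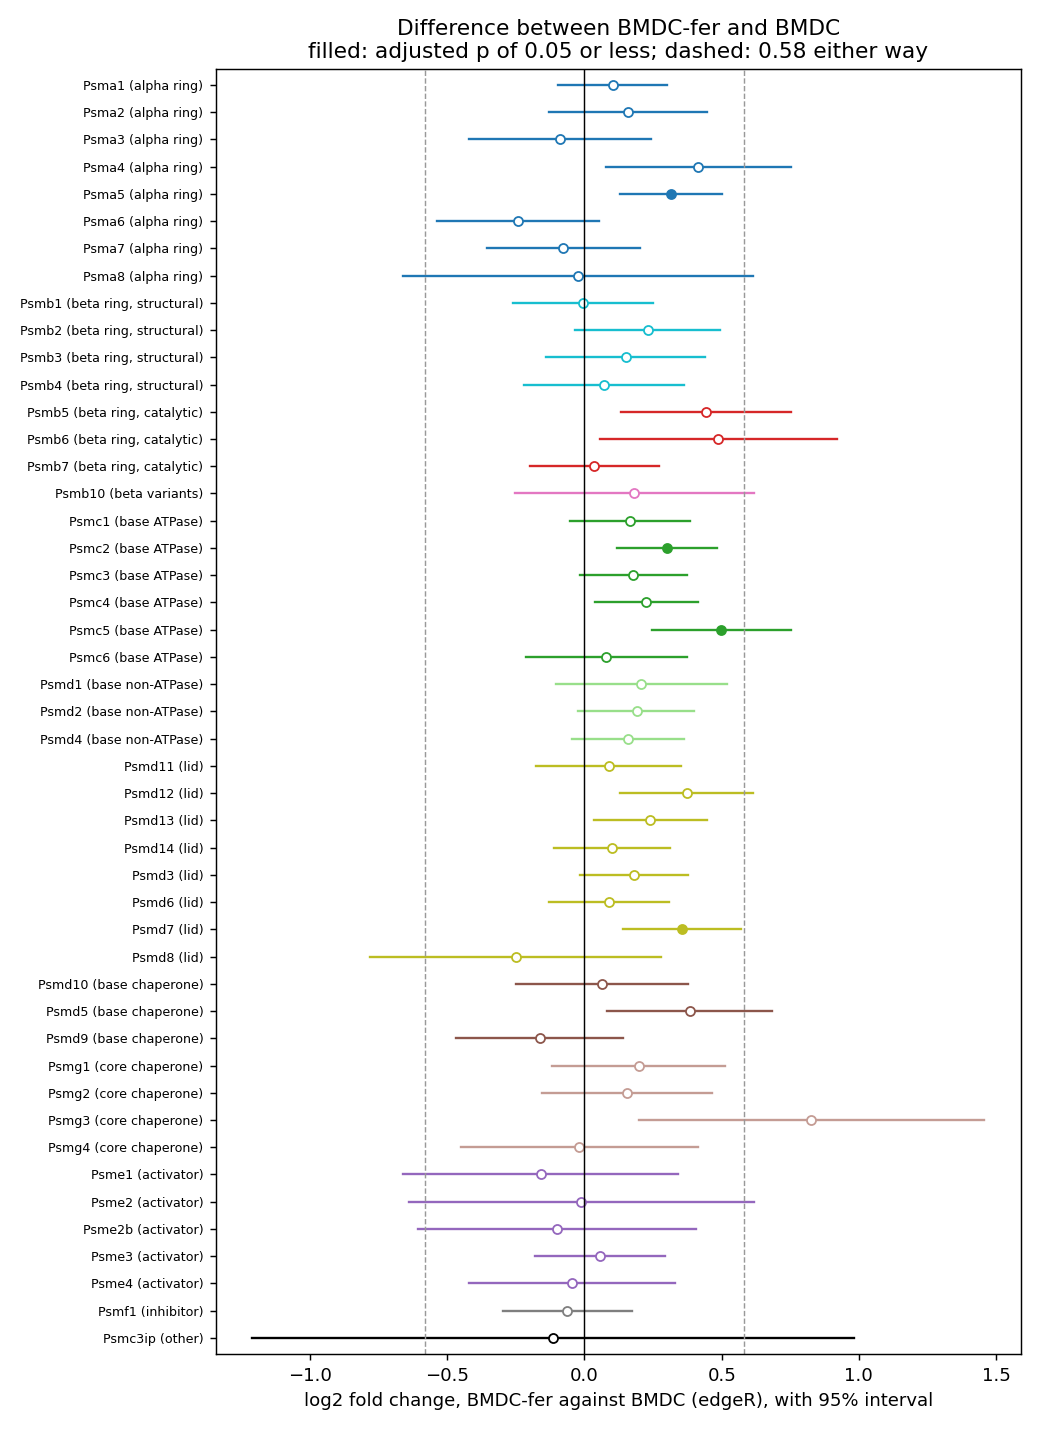
Log2 fold change of BMDC-fer against BMDC for the 47 tested members by role, with 95% intervals from edgeR, filled where the adjusted p was 0.05 or less, and dashed lines at 0.58 either way. The filled points are Psma5, Psmc2, Psmc5 and Psmd7, and all 4 lie between 0 and 0.58.

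Assembly chaperones help to build the complex and are not part of the finished particle. Psmg3, one of the 4 chaperones of the core, had the largest log2 fold change of all members. It was at 7.46, 7.37, 3.88 and 3.51 CPM in BMDC and at 11.1, 10.6, 8.91 and 8.82 CPM in BMDC-fer, without overlap. The log2 fold change was 0.83 ± 0.28 (SE) with an adjusted p of 0.086 in edgeR, so that it was not called. It passed as a call in the fit that blocked on the replicate number, with an adjusted p of 0.034, as did 4.85% of all tested genes in the upward direction, and by DESeq2, with an adjusted p of 0.034. Psmg3 shares 22.7% of its words with other genes. Its partner Psmg4 was at 16.4, 15.8, 22.3 and 22.6 CPM in BMDC and at 22.6, 21.7, 15.1 and 16.7 CPM in BMDC-fer, with a pooled log2 fold change of -0.02. Psmg1 and Psmg2 had log2 fold changes of 0.20 and 0.16 and overlapped between groups.

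Psmd5, Psmd9 and Psmd10 chaperone the base. Psmd5, the highest of them by fold, was at 38.2, 35.6, 30.5 and 32.9 CPM in BMDC and at 39.9, 38.6, 52.1 and 48.5 CPM in BMDC-fer. The groups did not overlap, and the log2 fold change was 0.38 ± 0.13 (SE) with an adjusted p of 0.094 in edgeR. With library totals alone Psmd5 did not stay above without overlap. Psmd9, the lowest, was at 27.2, 24.7, 33.6 and 31.8 CPM in BMDC and at 27.4, 28.5, 26.0 and 22.8 CPM in BMDC-fer, with a log2 fold change of -0.16 and an adjusted p of 0.44. Psmd10, also known as gankyrin, had a log2 fold change of 0.06.

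None of the 5 activator genes was called, and 4 of their log2 fold changes were below 0, with a median of -0.05. Psme1 and Psme2 encode the interferon-inducible ring of the 11S activator. Psme1 was at 202, 173, 159 and 148 CPM in BMDC 1 to 4 and at 196, 192, 104 and 119 CPM in BMDC-fer 1 to 4, a log2 fold change of -0.16 ± 0.22 (SE) with an adjusted p of 0.66 in edgeR. Psme2 was at 190, 167, 161 and 153 CPM in BMDC and at 238, 215, 106 and 105 CPM in BMDC-fer, for a log2 fold change of -0.01 with a 95% interval from -0.64 to 0.62. Both genes were low in BMDC-fer 3 and 4 and high in BMDC-fer 1 and 2, on either side of the BMDC libraries for Psme2.

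Psme2b was at 33.2 to 43.1 CPM in BMDC and at 23.9 to 46.2 CPM in BMDC-fer, but 69.3% of its words are shared with other genes, most with Psme2, so its counts cannot be told apart from those of Psme2 with certainty. Psme3, which forms the nuclear homolog of the ring, was at 117, 112, 98.8 and 99.2 CPM in BMDC and at 115, 123, 104 and 103 CPM in BMDC-fer. The log2 fold change of 0.06 had a 95% interval from -0.18 to 0.29. Psme4, which encodes the large single-chain activator PA200, was at 62.7, 72.6, 62.4 and 59.4 CPM in BMDC and at 47.9, 53.1, 79.6 and 68.6 CPM in BMDC-fer. BMDC-fer 1 and 2 were below, and BMDC-fer 3 above, all BMDC libraries, and the pooled log2 fold change was -0.05.

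Psmf1, which binds the core and inhibits it in vitro, was at 32.6, 29.3, 36.5 and 34.97 CPM in BMDC and at 32.6, 32.4, 30.7 and 32.02 CPM in BMDC-fer. Its log2 fold change was -0.06 with a 95% interval from -0.30 to 0.17. Psmc3ip, the gene that is no proteasome subunit, was at 7.32, 6.29, 1.92 and 2.19 CPM in BMDC and at 4.98, 5.82, 2.90 and 2.70 CPM in BMDC-fer, for a log2 fold change of -0.11 with a 95% interval from -1.21 to 0.98.

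**Figure D4:**
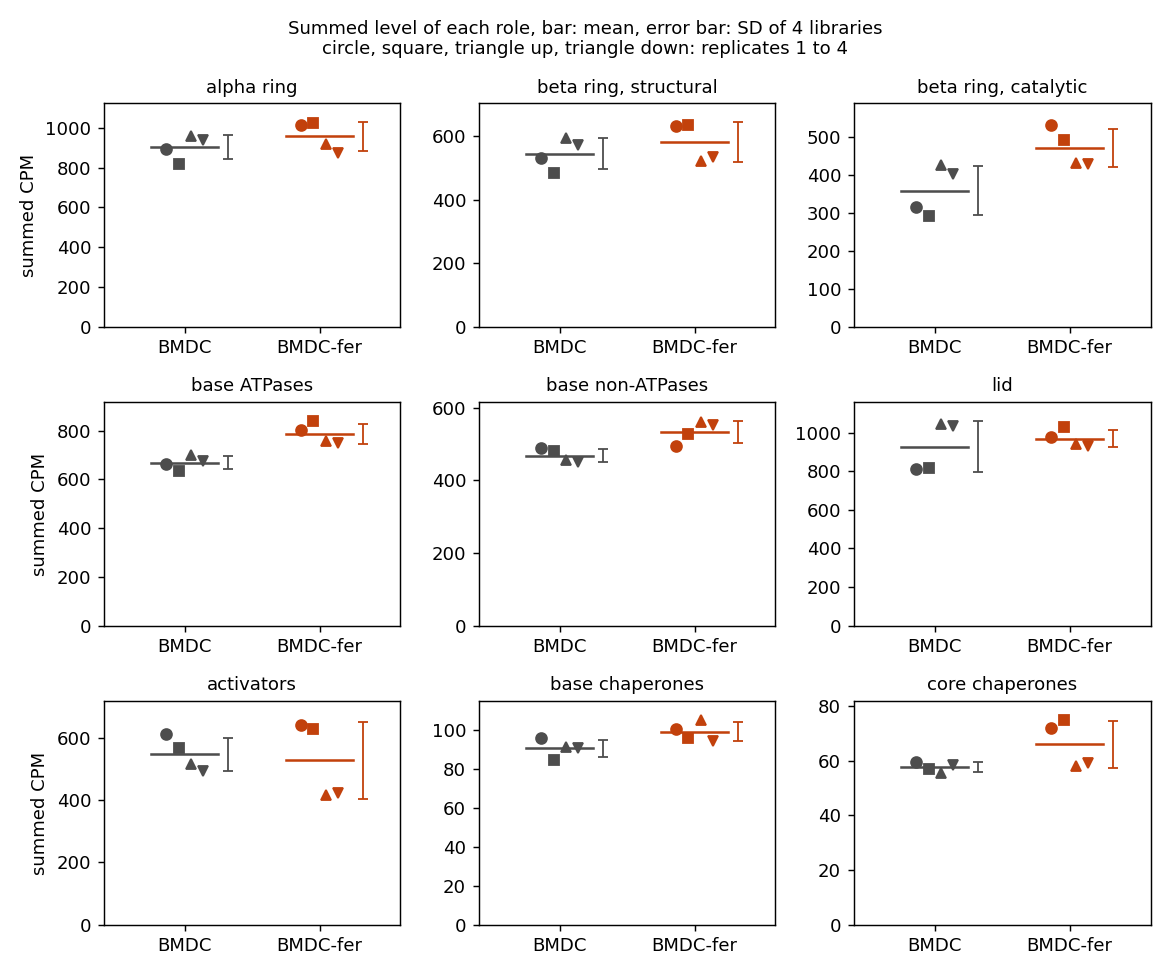
Summed CPM of the members of 9 roles in each library, with bars at the mean and error bars for the SD of 4 libraries, on axes that start at 0. In CPM the base ATPases and the other base subunits separate the groups, whereas the activators separate BMDC-fer 1 and 2, at 643 and 628 CPM, from BMDC-fer 3 and 4, at 418 and 424 CPM. As shares of the library totals the other base subunits overlapped, at 0.043% to 0.054% in BMDC and 0.048% to 0.054% in BMDC-fer.

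The catalytic subunits summed to 316, 291, 426 and 402 CPM in BMDC and to 533, 491, 432 and 428 CPM in BMDC-fer, so that the groups did not overlap but BMDC 3 and BMDC-fer 4 were nearly equal. The lid genes summed to 810, 818, 1046 and 1034 CPM in BMDC and to 974, 1027, 940 and 930 CPM in BMDC-fer. The alpha genes overlapped, at 820 to 958 CPM in BMDC and in BMDC-fer 873 to 1022 CPM. The lid sum of BMDC rests on Psmd8, which alone accounted for 226, 221, 418 and 420 CPM of it.

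The difference between BMDC-fer and BMDC depended on the pair of replicates. In a test of the difference between the effect in replicates 3 and 4 and that in replicates 1 and 2 (the interaction term in edgeR, adjusted over all tested genes), 24 of 47 members had an adjusted p of 0.05 or less, against 37.8% of all tested genes. In 19 members the log2 fold change was smaller in replicates 3 and 4, against 18.3% of all tested genes, and in 5 members it was larger, against 19.5%. Scaled by library totals alone, 9 members were smaller, against 11.2% of all tested genes, and 8 larger, against 27.9%. In that scaling 39.1% of all tested genes passed. The median difference moved by 0.21 (log2) for all tested genes and members together, from 0.00 to 0.21 and from -0.26 to -0.06. Without BMDC 3 the test passed for 14 members, against 25.3% of all tested genes. The direction was uneven by role under the TMM scaling. All 10 members of the constitutive core that passed, and 3 of the 4 activators, had the smaller value in replicates 3 and 4, while the 5 with the larger value were Psmd1, Psmd5, Psmg3, Psme4 and Psmc3ip.

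Within replicates 1 and 2 the log2 fold change was above 0 for 44 of 47 members with a median of 0.26, and within replicates 3 and 4 it was above 0 for 26 with a median of 0.04. The medians over all genes were 0.00 and 0.01. These fits hold 2 libraries per group, so their p-values, like those of the test between pairs, measure only the spread within a pair. In replicates 1 and 2, 17 members were higher by adjusted p alone in edgeR, against 13.7% of all genes tested there, and 1, Psme4, was lower, against 14.7%. With the fold threshold 2 members were called higher, against 8.16%, and 0 lower, against 11.3%. In replicates 3 and 4, 15 members were higher by adjusted p alone, against 29.8%, and 11 were lower, against 29.0%. With the fold threshold 2 were called higher, against 17.7%, and 1 lower, against 18.0%.

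The members called within replicates 1 and 2 were Psmb6, with a log2 fold change of 1.00 and an adjusted p of 0.0030, and Psmb5, with 0.71 and 0.0092 in edgeR. In replicates 3 and 4 Psmb6 had a log2 fold change of 0.03 and Psmb5 one of 0.23. The difference between the pairs was -0.98 for Psmb6 with an adjusted p of 7.0e-04 and -0.48 for Psmb5 with an adjusted p of 0.023. The mean level of BMDC 3 and 4 was above that of BMDC 1 and 2 by 0.42 (log2) for Psmb5 and 0.58 for Psmb6, while that of BMDC-fer 3 and 4 was below that of BMDC-fer 1 and 2 for both.

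Within replicates 3 and 4, Psmd5 and Psmg3 were called as higher, with log2 fold changes of 0.68 and 1.27, and Psmd8 was called as lower, with -0.71 and an adjusted p of 1.4e-05 in edgeR. Psmd8 had a log2 fold change of 0.37 in replicates 1 and 2, and its difference between the pairs, -1.09, was the largest in size among the members, with an adjusted p of 1.4e-04. Psmg4 went from 0.47 to -0.49 and Psme2 from 0.36 to -0.56, with adjusted p for the difference of 9.6e-04 and 8.0e-04 in edgeR. Psme1 went from 0.06 to -0.45, with an adjusted p for the difference of 0.018. Psme4 ran the other way, from -0.41 to 0.30, with an adjusted p for the difference of 0.0060.

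Of the 4 members with an adjusted p of 0.05 or less in the pooled comparison, Psma5 had 0.36 and 0.30 in the pairs, Psmc2 had 0.34 and 0.29, Psmc5 had 0.51 and 0.50, and Psmd7 had 0.26 and 0.48. These 4 were chosen by the pooled test, whose spread includes the difference between the pairs, so their values are given as a description.

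**Figure D5:**
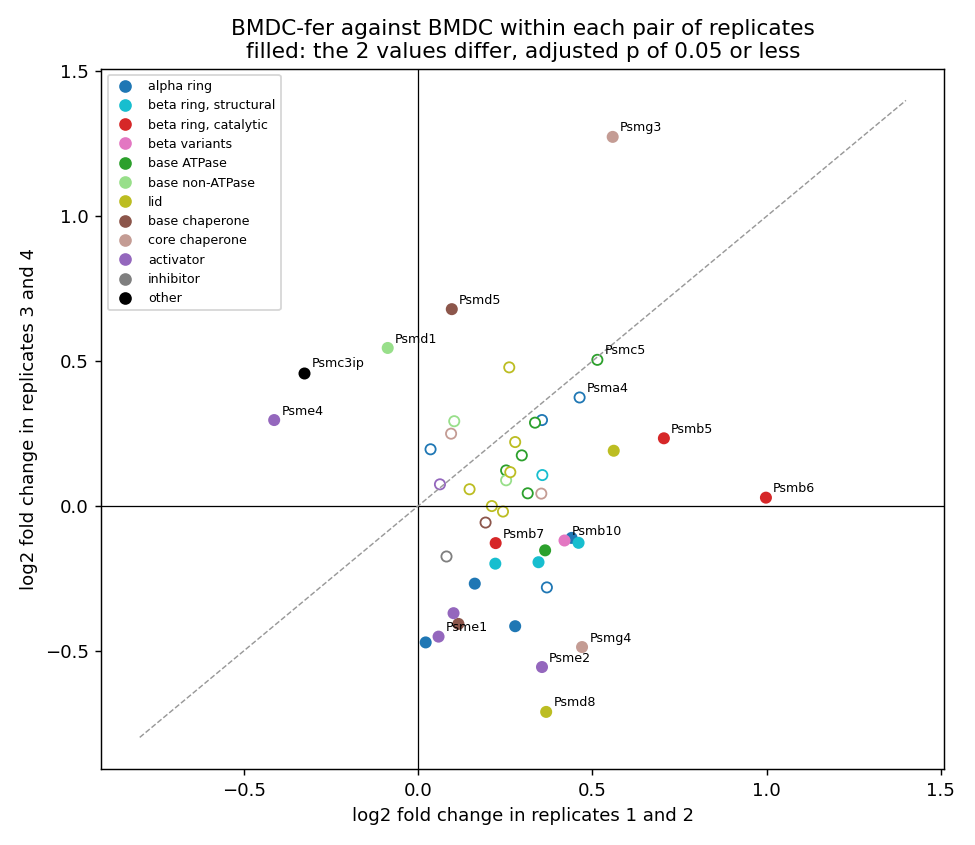
Log2 fold change of BMDC-fer against BMDC in replicates 3 and 4 plotted against that in replicates 1 and 2 for the 47 tested members, coloured by role and filled where the test of the difference had an adjusted p of 0.05 or less. Most points lie below the dashed line of equal values, with Psmb6 farthest to the right, Psmg3 at the top and Psmd8 at the bottom.

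Levels of different genes were compared per length, as CPM per kilobase of exon. Among the members Psmb5 was the highest in both groups, at 124 ± 21.6 in BMDC and 169 ± 11.2 in BMDC-fer (SD, n = 4). It was followed in BMDC by Psma6 at 112 ± 14.6 and Psmd8 at 105 ± 37.0, which differed from it by less than the spread. The order rests on the length used, since with the longest coding transcript in place of all exons Psmb6 was the highest in BMDC at 219 per kilobase and Psmb5 was the 9th. The core chaperone Psmg3 was at 1.92 ± 0.74 in BMDC, Psme4 at 7.67 ± 0.68, Psmf1 at 5.18 ± 0.49 and Psma8 at 0.956 ± 0.32, and these low positions were kept with the other length, at ranks 42 to 47 of 48. In both groups the activator order was Psme2, Psme1, Psme2b, Psme3 and Psme4, from 94.96 to 7.67 in BMDC and from 94.2 to 7.43 in BMDC-fer, where Psme2 and Psme1 differed by less than their spread in BMDC-fer.

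Genes that work with the proteasome under other symbols were described from lists chosen with earlier results of these data known. Of 12 further subunits, assembly and processing factors 1 was called, against 9.38% of all tested genes, with a median log2 fold change of 0.09. Fbxo7, an F-box protein that binds Psmf1, fell from 20.2, 20.2, 30.6 and 29.5 CPM in BMDC to 14.5, 16.3, 15.2 and 14.4 CPM in BMDC-fer, for a log2 fold change of -0.73 with an adjusted p of 0.028 in edgeR, and of -0.38 and -1.01 in the pairs. Pomp, the maturation protein of the core, was the highest by fold at 0.32 with an adjusted p of 0.28, and at 0.30 and 0.37 in the pairs. Of 7 peptidases that trim proteasome products, 6 in the cytosol and Erap1 in the endoplasmic reticulum, 1 was called, with a median of 0.27. Thop1 rose from 18.0, 18.0, 11.9 and 11.1 CPM to 25.6, 25.3, 22.9 and 23.9 CPM, a log2 fold change of 0.73 with an adjusted p of 0.037 in edgeR, and of 0.51 and 1.04 in the pairs. Erap1 was the lowest at -0.26, and at -0.27 and -0.22 in the pairs.

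Among 6 ubiquitin and ubiquitin-activating genes 0 were called, with a median of -0.11. The test between pairs passed for 4 of the 6, against 37.8% of all tested genes. Ubb, a polyubiquitin gene, was the lowest at -0.43, and was at 1116, 1050, 2258 and 2151 CPM in BMDC and at 1260, 1241, 1100 and 1299 CPM in BMDC-fer. Like Psmd8, Ubb was high in BMDC 3 and 4, with log2 fold changes of 0.21 and -0.87 in the pairs. Uba6 was the highest at 0.18, from -0.44 in replicates 1 and 2 and 1.10 in replicates 3 and 4. Among 12 shuttle factors and partners of p97 0 were called, with a median of 0.10, and Vcp, which encodes p97 itself, was the highest at 0.36, from 0.04 and 0.72 in the pairs.

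Of 12 regulators of proteasome genes 0 were called, with a median of 0.07. By adjusted p alone 1 passed, against 4.85% of all tested genes that were higher and 7.16% that were lower. It was Bach1, lower at -0.56 with an adjusted p of 0.035 in edgeR, short of the fold threshold, and at -0.29 and -0.77 in the pairs. Nfe2l1, which drives proteasome genes when the proteasome is inhibited, was at 145, 159, 155 and 169 CPM in BMDC and at 128, 137, 180 and 163 CPM in BMDC-fer, for a log2 fold change of -0.05 with an adjusted p of 0.82 in edgeR, and of -0.20 and 0.09 in the pairs. Nfe2l2, the antioxidant response factor that binds TGACNNNGC, was at 230, 249, 143 and 141 CPM in BMDC and at 315, 323, 272 and 270 CPM in BMDC-fer. These groups did not overlap, and the log2 fold change of 0.63 had an adjusted p of 0.080 in edgeR and of 0.028 with the replicate number as a block, where it was called. In the pairs Nfe2l2 had log2 fold changes of 0.42 and 0.95. Maff, a small Maf protein that pairs with these factors, was the lowest of the list at -1.51, with an adjusted p of 0.096 in edgeR. It was at 21.5, 14.2, 75.8 and 67.2 CPM in BMDC and at 23.8, 14.4, 12.1 and 12.4 CPM in BMDC-fer, so that the pooled value rests on BMDC 3 and 4, with 0.11 and -2.53 in the pairs.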

How the data were processed

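Polyadenylated RNA of 4 BMDC and 4 BMDC-fer libraries was sequenced. HISAT2 and featureCounts were used by the authors for mapping and for counting per gene, and raw counts were deposited, per the labels on mm10. They also counted human genes, which were not used here. Whether reads from the engulfed human Jurkat cells were counted on mouse genes was not tested. Strand and the handling of reads with several matches are not given in the sources used here. The counts were used without change.

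Symbols and exon lengths came from GENCODE M21 (GRCm38), in which 55227 of the 55487 gene identifiers had a symbol. edgeR 4.0.16 in R 4.3.3 with TMM factors, filterByExpr (count minimum 10) and the quasi-likelihood test gave fold changes, and intervals are at 95%. Single values were tested by a two-sided exact permutation test. DESeq2 1.42.0, as in the study, other scalings and filters, the replicate number as a block, the replicate pair as a covariate, each library left out and each pair of replicates alone were alternatives. The tests recovered known changes in simulated counts. The simulated BMDC libraries held no difference between the pairs of replicates. The planted changes were larger than the pooled change of any member, so power for small changes was not measured. Between replicates of a pair the chi-square of the counts per gene was 9 to 40.9, above sampling noise, so no library was counted as a repeat.

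The members and lists were chosen with earlier results of these data known. Named members are those called, the highest and lowest by fold in each role, the catalytic and variant core subunits, the activators and Psmf1. Further members were named after their values were seen. From the other lists the called, highest and lowest genes are named, with Nfe2l1, Nfe2l2 and Bach1, the last added after its value was seen. Some genes that this rule covers are not reported here.

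The main comparison and the exact permutation test did not pair the samples. Among the tests, samples that share a number were paired only in the blocked fit and in the sign flips of the subunit ratios. The labels give this pairing only as numbers. Across genes, each library was taken as its deviation from its group mean. These deviations correlated at 0.313 to 0.445 between BMDC and BMDC-fer libraries of the same number, all above 0.1. Libraries of the other number in the same pair of replicates correlated at 0.186 to 0.379, so a part of this follows the split between replicates 1 and 2 and replicates 3 and 4, and not every library correlated best with its own number. The study collected its samples independently, and p-values of the pooled comparison measure the spread between the 4 libraries of a group. The fits within a pair of replicates rest on 2 libraries per group. Their p-values, and those of the test between pairs, measure only the spread within pairs. Libraries of a pair were more alike, with a chi-square per gene of 9 between BMDC 3 and 4 and of 336 between BMDC 1 and 3. Single p-values over 4 against 4 libraries cannot go below 0.0286 in the exact test. Word sharing was counted over 50-base words of the longest coding transcript.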

Additional observations from a re-analysis of the deposited data

Results flagged for a closer look

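The difference between BMDC-fer and BMDC was not the same in replicates 1 and 2 as in replicates 3 and 4 in 24 of the 47 tested members, against 37.8% of all tested genes, by the interaction term of edgeR with Benjamini-Hochberg adjustment over all tested genes. Among the 25 named members above the floor, the lowest or the highest library stood apart from the rest of its group in 2 of 50 groups of 4, by the gap to its nearest neighbour divided by the range of the group, where chance gives about 1 in 20. Psma6 in BMDC-fer 4 was at 96.9 CPM against 122 to 125 CPM in the other libraries of its group, a gap of 0.893 of the range. Psmd4 in BMDC 2 was at 91.1 CPM against 104 to 106 CPM, a gap of 0.882 of the range.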

How the results depend on the processing

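No member was called under the other scalings and filters, in any fit that left out 1 library, or in a test against the fold threshold. The members' median log2 fold change of 0.15 was 0.10 to 0.16 with 1 library left out. It was 0.05 with library totals alone, 0.26 in replicates 1 and 2 alone and 0.04 in replicates 3 and 4 alone. These values lay within 1 SD of the main value, but that SD, over the medians by replicate number, was 0.15, as large as the median itself. Members called numbered 1 (higher) with DESeq2, 1 (higher) with the replicate pair as a covariate, 2 (higher) in replicates 1 and 2 alone, 3 (2 higher, 1 lower) in replicates 3 and 4 alone, and 4 (higher) by adjusted p alone. With the replicate number as a block 1 member was called (higher, Psmg3) and 2000 genes in all, and by adjusted p alone Psma5, Psmc2 and Psmd7 no longer passed while Psma4 and Psmg3 did. The pairing changed no other call of a member. Over all genes 1445 were called, against 2414 with DESeq2, 2815 with the pair as a covariate, 3062 and 5604 in replicates 1 and 2 and in replicates 3 and 4 alone, 225 in the test against the fold threshold, and 565 to 1440 with 1 library left out. The test between pairs passed for 14 to 23 members with 1 library left out, against 25.3% to 36.4% of all tested genes. Of the 1445 genes called in the main comparison 37.0% were higher, and 20.3% of those called with library totals alone, which shifted the median of all genes to -0.09 and of members to 0.05. The causes were not tested.

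Of 500 values of the 25 named members under 20 alternatives, 47 changed sign. Most of the changed values were near 0 or within 1 pair of replicates. In replicates 1 and 2 alone they were 0.021 for Psma6, 0.22 for Psmb1, -0.088 for Psmd1, 0.37 for Psmd8, 0.12 for Psmd9, 0.058 for Psme1, 0.36 for Psme2, 0.10 for Psme2b, 0.08 for Psmf1 and 0.47 for Psmg4. In replicates 3 and 4 alone they were -0.12 for Psmb10, -0.13 for Psmb7, 0.46 for Psmc3ip, -0.15 for Psmc6 and 0.30 for Psme4. With library totals Psmb7 was at -0.05 and Psme3 at -0.042. Without the filter Psmb1 was at 0.018, Psme2 at 0.009 and Psmg4 at 0.005, and with upper-quartile factors at 0.016, 0.009 and 0.001. With the block Psmb1 was at 0.00 and Psmc3ip at 0.042, which was 0.037 with the pair as a covariate. With 1 library left out Psmb1 ranged from -0.06 to 0.049, Psmb7 from -0.021 to 0.089, Psmc3ip from -0.36 to 0.24, Psme2 from -0.23 to 0.16, Psme2b from -0.23 to 0.057, Psme4 from -0.18 to 0.069 and Psmg4 from -0.10 to 0.081. The differences of the subunit ratios kept their sign in every such fit, where 3 against 4 libraries cannot reach a p under 0.0571 in the exact test.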
